A study of Mus musculus with 2 samples.

Results

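The interval described here is the distal end of mouse chromosome 8, from 95 Mb of the mm9 assembly to the end of the chromosome as the array covers it. It was taken as every gene probe placed there, with the probes of the metallothionein genes Mt1 to Mt4 and of the tyrosine aminotransferase gene Tat left out. This gave 672 of the 41174 probes on the array, under 438 gene or transcript names, and the other 1268 probes of chromosome 8 served for comparison. The first member probe belongs to Irx6 (start 95203880) and the last starts at 131702263. The interval was selected on measured ratios of the same arrays, because a transcript in it, AK090125, and 2 of the left-out genes, Mt1 and Tat, stood far apart between the genotypes. The ratios of the members are therefore a description, and no test of them is given.

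The arrays compared total RNA from the intestine of male mice labelled gut-specific GDE5 (Gpcpd1) deficient with that of males labelled wild-type. Gpcpd1 encodes GDE5, an enzyme that splits glycerophosphocholine and so frees choline for reuse. Both genotypes were 20 weeks old and on normal diet, and the series title gives the C57BL/6 strain. The series text gives 5 mice, and the sources used here do not state whether animals were pooled, which gut segment was taken, or which Cre line and which part of the gene the knockout rests on. Each of the 2 dual-colour Agilent arrays held both genotypes, with the RNA labelled knockout in Cy3 in replicate 1 and in Cy5 in replicate 2. Ratios are log2 values, with the RNA labelled knockout in the numerator, and are given as mean ± SD of the arrays (n = 2), so a negative value means less signal in the RNA labelled knockout. Whether the arrays carry separate extracts is not stated, so the spread between them may be technical only, and 2 arrays allow little precision. Gpcpd1 itself did not follow its label. Of its 4 probes, 3 were higher on both arrays in the RNA labelled knockout, with means of 0.47 to 0.68, and the other was at -0.13 ± 0.43, so each direction given here rests on the dye labels alone.

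The distal end of chromosome 8 holds several clusters of related genes that matter in the gut. Carboxylesterases of the Ces1, Ces2 and Ces3 groups, which split ester bonds in drugs and lipids, lie there in clusters, as do chemokine, cadherin and metallothionein genes. The region also carries Mc1r, the receptor of melanocytes that sets coat colour, and Agt, which encodes the precursor of angiotensin. In C57BL/6 mice an endogenous ecotropic murine leukaemia provirus, Emv2, is known to lie on distal chromosome 8, and the name melanoma antigen has been used in the literature for an envelope product of such proviruses.

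AK090125 has a single probe, A_51_P326826, printed as 1 spot per array and placed on the minus strand at chromosome 8, 125949940 to 125949999 (mm9). The array annotation describes the transcript as a cDNA clone from the BC3H1 brain tumour cell line with a product named melanoma antigen. The annotation used here gives no exon or gene model at the probe. It lies between Tubb3, which encodes the neuronal beta-tubulin and whose probe starts 4.2 kb before it, and Def8, whose probe starts 37.0 kb after it. The stretches just before the starts of these flanking genes are shown because these are the nearest measured genes on either side of AK090125. Each is 250 bases from RefSeq on GRCm38.p6, whose coordinates differ from those of mm9, on the plus strand from 5′ to 3′. For Tubb3 it is chr8:123411303-123411552, and for the starts RefSeq lists for Def8 it is chr8:123442706-123442955 and chr8:123443009-123443258. Capitals mark matches, on either strand, to the GC box (GGGCGG), the so-called CCAAT box, or the TATA box (TATAAA).
Tubb3: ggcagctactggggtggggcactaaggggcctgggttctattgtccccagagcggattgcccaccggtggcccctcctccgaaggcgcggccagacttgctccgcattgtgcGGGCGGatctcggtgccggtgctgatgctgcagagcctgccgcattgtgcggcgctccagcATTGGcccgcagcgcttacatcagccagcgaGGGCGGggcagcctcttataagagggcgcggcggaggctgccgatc
Def8, first start: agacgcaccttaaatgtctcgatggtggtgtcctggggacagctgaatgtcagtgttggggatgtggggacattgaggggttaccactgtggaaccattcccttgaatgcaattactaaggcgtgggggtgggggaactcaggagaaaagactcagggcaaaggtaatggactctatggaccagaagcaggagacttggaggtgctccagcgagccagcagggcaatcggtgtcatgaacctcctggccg
Def8, next start: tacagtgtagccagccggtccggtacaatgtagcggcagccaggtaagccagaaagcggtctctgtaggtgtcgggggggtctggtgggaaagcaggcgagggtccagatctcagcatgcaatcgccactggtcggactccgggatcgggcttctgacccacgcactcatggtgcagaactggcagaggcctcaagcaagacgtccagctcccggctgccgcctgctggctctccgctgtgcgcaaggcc
The Tubb3 stretch held 2 matches to GGGCGG and 1 to CCAAT, and its GC content was 68.0%, with 21 CpG dinucleotides. Neither Def8 stretch held a match to the 3 motifs. The first had a GC content of 54.8% and 6 CpG dinucleotides, and the next 63.6% and 16. Among the 32851 stretches of the same length in the RefSeq table, 32.7% held GGGCGG, 33.8% CCAAT and 12.4% TATAAA, the median GC content was 52.4% and the median number of CpG dinucleotides 6.00. These matches describe the letters only.

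The signal of AK090125 was high in the RNA labelled knockout and low in the RNA labelled wild type on both arrays. The processed intensity, which the scanner software had corrected for background and dye, was 3605 against 188 in replicate 1 and 3549 against 236 in replicate 2. The arrays gave nearly the same level for each genotype although the dyes were exchanged. Before any correction, the mean pixel intensity was 2315 against 133 in replicate 1 and 1602 against 177 in replicate 2. The spot was well above background in both genotypes on both arrays and carried no outlier mark, so the low value in the RNA labelled wild type is a measured level. Within its array the probe stood at percentile 83.3 and 83.0 of the tested probes, defined below, for the RNA labelled knockout. For the RNA labelled wild type it stood at percentile 39.0 and 41.8 of the same probes. After normexp background correction and loess, the arrays gave log2 ratios of 3.78 and 3.26. The mean of 3.52 ± 0.37 corresponds to an 11.4-fold higher level in the RNA labelled knockout. The ratios processed by the scanner software gave 4.26 and 3.91, with a mean of 4.09 ± 0.25 or 17.0-fold.

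Among the 29047 probes that cleared background on each array for one and the same genotype, here called tested, AK090125 ranked 1 by the mean ratio and by the smaller of its ratios, in either direction. The next probe was one of Mt1, at a mean of -2.92 and with 2.82 as the smaller size. The 60 bases of the AK090125 probe, with a GC content of 55.0%, shared at most 13 bases in a row, on either strand, with any of the 41173 other probes. That run occurred in 3 probes, for 4933404O12Rik, Epb41l4b and Snrpf, so no other probe of the array measures the same stretch. Whether the genome holds further copies of the stretch was not tested, since no genome was used here.

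Other probes of the array carry a retroviral name in their description, and these were picked out after the values had been seen. Of the 8 such probes, 4 were well above background, and all 4 had opposite directions on the arrays. Erv3, an endogenous retroviral gene, was at -0.40 and 0.46, a mean of 0.03 ± 0.61. The probe for the retrovirus-related envelope of the Fv-4 locus, TC1599525, was at -0.18 and 0.17, a mean of -0.01 ± 0.25. S74315, annotated as a gag and env transcript, was at 0.00 ± 0.34, and Asprv1, a retroviral-like protease of skin, at 0.00 ± 0.27. On the processed ratios Asprv1 was lower on both arrays, at -0.17 and -0.18.

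The genes nearest to AK090125 did not share its ratio. On the left, Tubb3 had processed intensities of 376 and 410 in the RNA labelled knockout and 428 and 407 in the RNA labelled wild type, which overlap, with a ratio of -0.08 ± 0.18. Mc1r, 17.5 kb away, was close to the background at 15.8 and 19.9 against 15.2 and 22.4, with a ratio of -0.02 ± 0.08, and in the RNA labelled wild type it cleared background on 1 array only. Spire2, an actin nucleator 62.7 kb away, was at 0.00 ± 0.01, and the unnamed transcript TC1661417, 138.6 kb away, at 0.01 ± 0.40. The exception by size was Tcf25, named as a transcription factor and 22.3 kb away, whose brightest probe was at 0.81 and 0.19, a mean of 0.50 ± 0.44. Its other probes were at 0.25 ± 0.24 and -0.08 ± 0.12, so the probes of Tcf25 differed in sign.

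On the right, Def8 had processed intensities of 1862 and 1774 in the RNA labelled knockout and 1648 and 1882 in the RNA labelled wild type. Its ratio was -0.10 ± 0.04, while the scanner software gave 0.18 and -0.09, so its direction was not settled. Afg3l1, a mitochondrial protease gene at 77.8 kb, was at -0.05 ± 0.32, Dbndd1 at 79.7 kb at 0.09 ± 0.05, and the unnamed transcript AK084859 at 85.5 kb at 0.06 ± 0.05. Gas8, which encodes a subunit of the dynein regulatory complex of cilia, lay 107.2 kb away and was at -0.08 and -0.22, a mean of -0.15 ± 0.10. Across the 10 neighbours the means ran from -0.15 to 0.50, against 3.52 at AK090125.

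**Figure D1:**
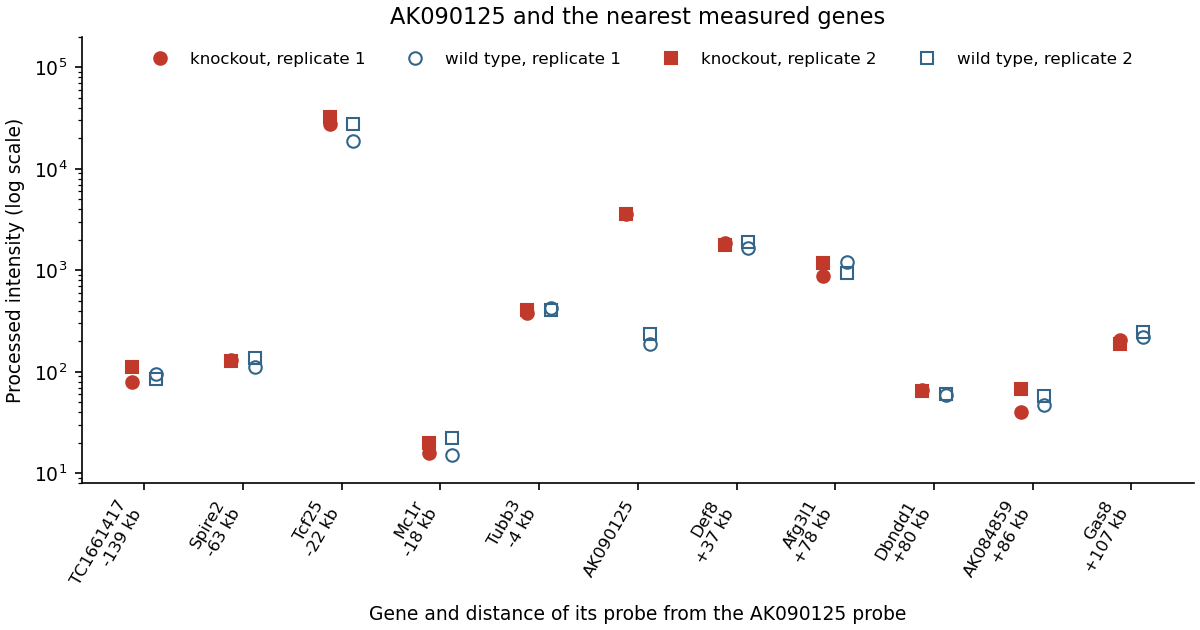
Processed intensity (log scale) of AK090125 and the 5 nearest measured genes on each side, with the distance of each probe from that of AK090125 in kb; filled red marks are the RNA labelled knockout, open blue marks the RNA labelled wild type, circles replicate 1 and squares replicate 2. AK090125 lies at 3605 and 3549 against 188 and 236, while the marks of the other genes lie close together.

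Across the whole interval, 515 of the 672 member probes were tested in this sense, and the other 157 were left out of the counts below. None was saturated. Of the 515, 14 failed to clear background on at least 1 array in the RNA labelled wild type and 6 in the RNA labelled knockout, so that their ratios are less certain. By a threshold of 1.5-fold in the same direction on both arrays, 1 member was higher in the RNA labelled knockout, AK090125, and 0 were lower. Over all 29047 tested probes, 0.120% were higher and 0.0482% lower by this threshold. On the processed ratios 2 members were higher, AK090125 and the dim Adgrg5, and 0 lower, against 0.571% and 0.251% of all tested probes. As the interval was chosen with these ratios in view, nothing is read from these shares. By limma over the whole array, 0 probes had a Benjamini-Hochberg adjusted p under 0.05, the smallest being 0.597, and 353 had an unadjusted p under 0.05. The same test called 80 probes on the processed ratios.

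The members other than AK090125 lay close to 0. Their means ran from -0.56 to 0.50, with an SD over probes of 0.12, and 91.5% of all tested members lay within 0.2 of 0, against 89.3% of the 926 tested probes on the rest of chromosome 8 and 88.5% on the whole array. The median ratio was -0.015, with -0.007 in replicate 1 and -0.018 in replicate 2. It was -0.016 on the rest of the chromosome and -0.011 over all tested probes. By direction alone, 99 members (19.2%) were lower on both arrays and 70 (13.6%) higher, and 346 had opposite directions. The shares over all tested probes were 18.8% lower and 17.4% higher, and on the rest of chromosome 8 they were 20.5% and 16.1%. With 1 probe per gene, the brightest, 17.7% of 350 genes were lower on both arrays and 13.1% higher, against 18.1% and 16.9% of 18988 genes or unnamed probes on the array.

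**Figure D2:**
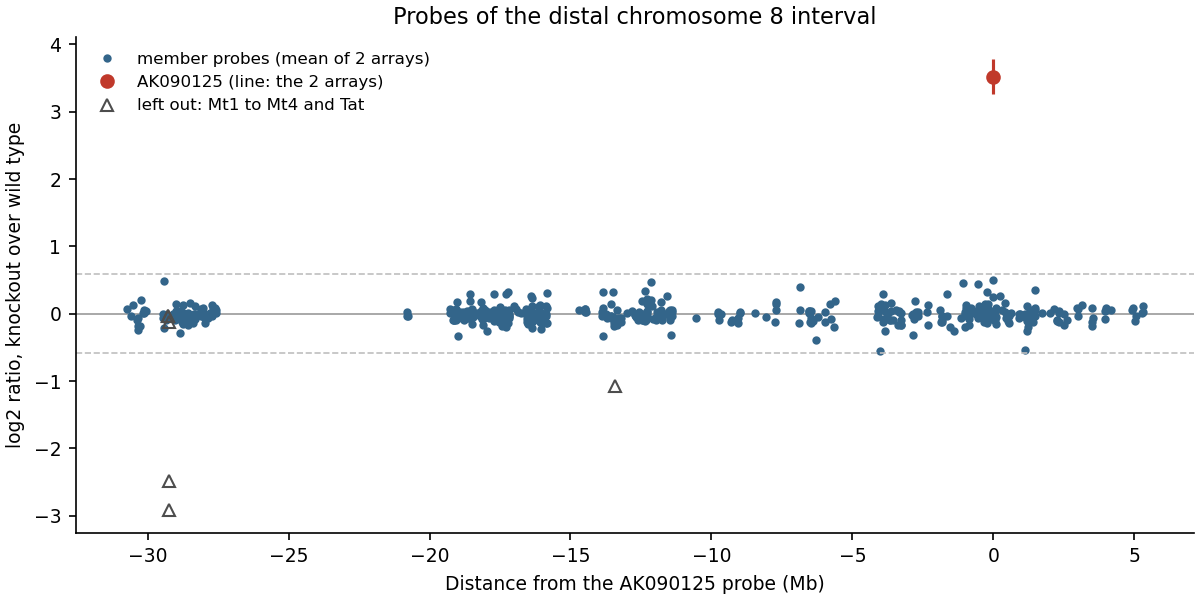
Mean log2 ratio of the 515 tested members against the distance from the AK090125 probe in Mb, with AK090125 in red, its line spanning the arrays, and the tested probes of the left-out genes Mt1 to Mt4 and Tat as open triangles; dashed lines mark 1.5-fold. AK090125 alone lies above the upper dashed line among the members, and the triangles below the lower line are the 2 probes of Mt1 and the probe of Tat.

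Along the interval, windows of 5 Mb had median ratios between -0.055 and 0.033. The 19 windows of the rest of the chromosome ran from -0.054 to 0.131. The lowest of the distal medians was that of the window from 115 to 120 Mb, with 34 tested probes, and the highest that of the last window, from 130 Mb, with 8. In the window from 125 to 130 Mb, which holds AK090125 and 104 tested probes, the median was -0.005, with 17 probes lower and 19 higher on both arrays. The window from 100 to 105 Mb held 5 probes, of which 0 were tested.

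The probes on either side of the start of the interval did not mark a step, though those just outside it were dim. Just inside it, Irx6, a homeobox gene, was at 0.07 ± 0.10 and Mmp2, a matrix metalloprotease, at -0.04 ± 0.06, with the dim transcript LF204648 between them. Just outside it, the noncoding transcript Crnde was at -0.01 ± 0.01, and Irx5 and Irx3os were not tested because they were too dim. Crnde was itself close to the background, at 19.4 and 14.5 against 16.8 and 19.9. Its processed ratios were 0.21 and -0.46, and in the RNA labelled knockout it cleared background on 1 array only.

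The ratios of the members also followed the dye. Over the 514 members other than AK090125 the arrays correlated negatively after turning the sign, with r = -0.51, and r was -0.46 on the rest of chromosome 8 and -0.38 over all tested probes. These correlations are across probes, which share 2 hybridisations and are not independent. On the processed ratios r was -0.20 for the same members. By the same threshold, 6 members differed with the dye rather than with the genotype on both arrays, and 6 on the rest of the chromosome, against 1 on each in the genotype direction. These are 1.17% of the members, 0.648% of the rest of the chromosome and 0.840% of all tested probes. The 2 highest member means after AK090125, those of Tcf25 and Nudt21, had a larger ratio in replicate 1 than in replicate 2.

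**Figure D3:**
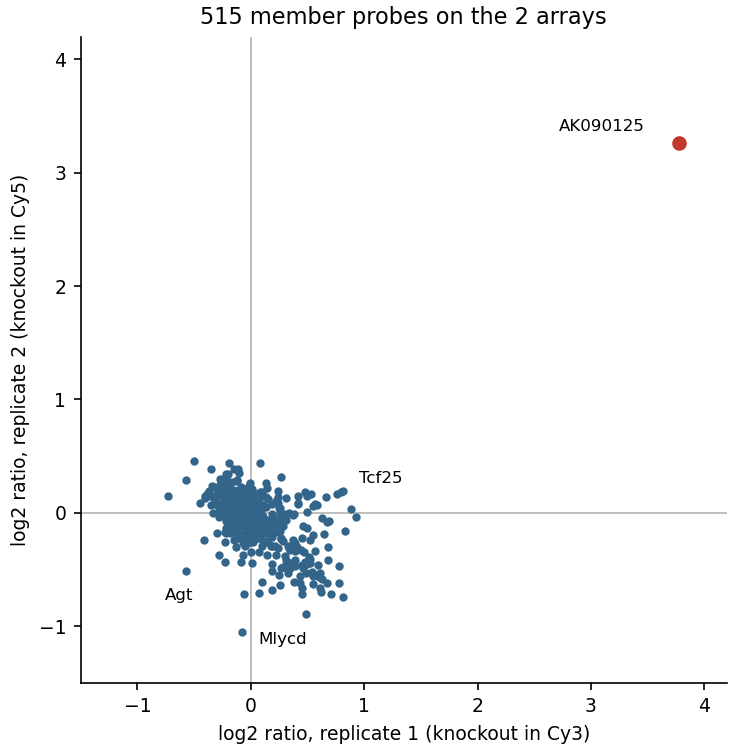
Log2 ratio in replicate 1 (knockout label in Cy3, horizontal) against replicate 2 (knockout label in Cy5, vertical) for the 515 tested members, AK090125 in red. AK090125 lies at 3.78 and 3.26, Agt at -0.57 and -0.51 and Mlycd at -0.08 and -1.05, and the rest form a cloud around 0 that leans from upper left to lower right.

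Of the members lower on both arrays, Agt stood furthest apart by the smaller of the arrays' ratios. Genes named here were chosen for a shared direction on both arrays, so a gap between the genotypes' intensities is no further finding. Angiotensinogen had processed intensities of 2355 and 2488 in the RNA labelled knockout and 4018 and 3474 in the RNA labelled wild type. Its ratios were -0.57 and -0.51, a mean of -0.54 ± 0.05 or 1.46-fold lower (probe at chromosome 8, 127080661 to 127080720, mm9). The processed ratios were -0.77 and -0.48, so Agt stayed under the 1.5-fold threshold on at least 1 array by either kind of ratio. The probe starts 1130.7 kb beyond AK090125. Hp, the haemoglobin scavenger haptoglobin, followed with -0.28 and -0.37 (-0.33 ± 0.06), though its processed ratio in replicate 1 was -0.06. Gse1 was at -0.32 ± 0.12, with a processed ratio of 0.11 in replicate 2, and the tubulin-binding Tppp3 at -0.25 ± 0.03.

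The other members named for lower values on both arrays had smaller differences. Mvd, the decarboxylase of the mevalonate pathway that leads to cholesterol, was at -0.20 ± 0.03 with intensities of 703 and 648 against 759 and 863. Slc7a5, a carrier of large neutral amino acids, was at -0.20 ± 0.04 with 253 and 259 against 321 and 304. Coq9, needed for coenzyme Q synthesis, was at -0.17 ± 0.05. Ddx28, an RNA helicase of mitochondria, was at -0.18 ± 0.07 and Tmed6, a member of a family of secretory cargo receptors, at -0.21 ± 0.11. Chst4, a sulfotransferase, was at -0.15 ± 0.01. Mlycd, malonyl-CoA decarboxylase, had the lowest mean of all members at -0.56 ± 0.69, but its arrays lay far apart. They gave -0.08 in replicate 1 and -1.05 in replicate 2, and a dye effect of the probe was not tested. Its processed ratios were -0.26 and -0.81. Bco1, which splits beta-carotene in the gut, was picked out after its values were seen. It was at -0.06 and -0.72, and its processed ratios were closer to each other at -0.49 and -0.55.

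Of the members higher on both arrays, after AK090125, Nfatc3 had the largest value of the smaller ratio. This calcium-regulated transcription factor had intensities of 1835 and 1735 in the RNA labelled knockout and 1447 and 1442 in the RNA labelled wild type. Its ratios were 0.27 and 0.32 (0.29 ± 0.04). Its processed ratios were 0.34 and 0.27. Most others had a larger ratio in replicate 1 than in replicate 2. Nudt21, a factor in the processing of transcript ends, was at 0.80 and 0.18, Rfwd3, a ubiquitin ligase of DNA repair, at 0.76 and 0.17, and Cdyl2 at 0.66 and 0.14. Egln1, the oxygen sensor that marks hypoxia-inducible factor for breakdown, was at 0.35 ± 0.26, the phosphatase Phlpp2 at 0.33 ± 0.21 and Txnl4b at 0.32 ± 0.25. Spata33 was dim, with intensities of 32.2 and 26.8 against 24.5 and 28.2, which overlap, and a ratio of 0.14 ± 0.01.

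**Figure D4:**
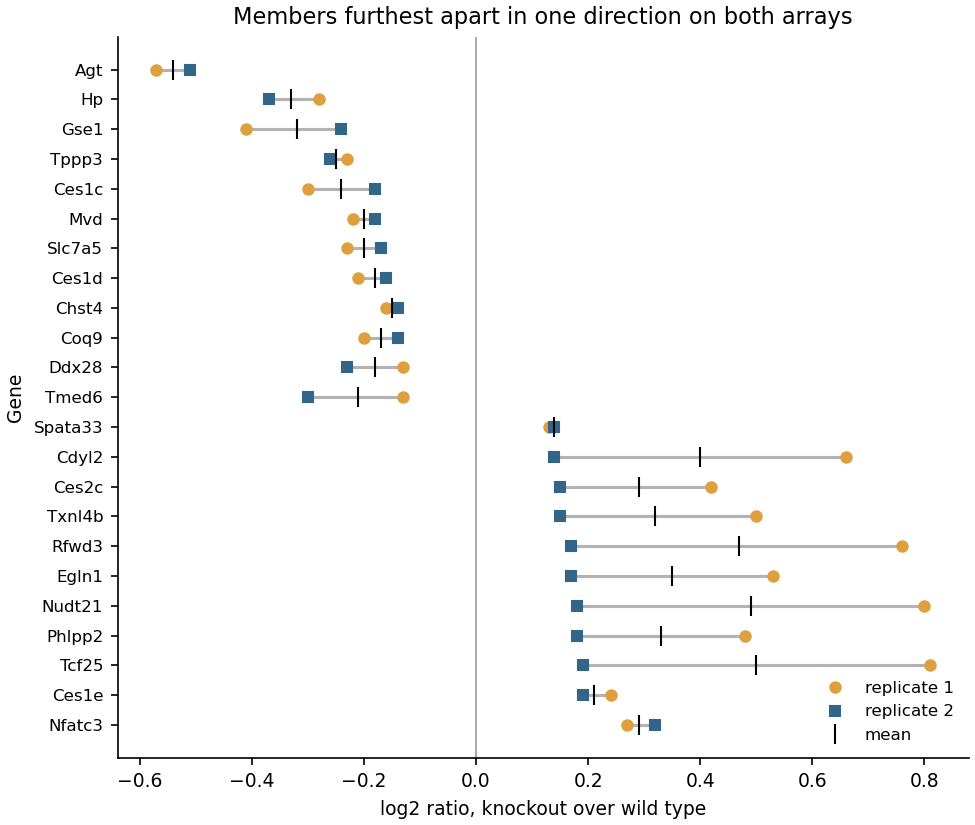
Log2 ratio in each array for the members with the same direction on both arrays and the largest smaller-of-the-arrays size, AK090125 left out for scale; circles are replicate 1, squares replicate 2, the tick their mean and the grey line their span. Agt lies lowest at -0.57 and -0.51, and among the higher genes Nfatc3 and Ces1e have short spans while Tcf25 runs from 0.19 to 0.81.

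Where a gene had several tested probes, the range between them had a median of 0.10 over 118 such names. The means of all members other than AK090125 had an SD of only 0.12. A range of this size therefore does not show that probes of the same gene agreed. The largest range was 0.70, at Nudt21, whose other probe was at 0.01 and -0.44, a mean of -0.21 ± 0.31 against 0.49 ± 0.44. The value of Nudt21 therefore depended on the probe.

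Carboxylesterases are abundant enzymes of the gut wall and formed the longest of 10 lists of members by function. As a background for these lists, the median ratio of the 18988 genes or unnamed probes was -0.010. Of 16 names on the array, 14 were tested, of which 3 were lower and 2 higher on both arrays and 9 had opposite directions, with a median of 0.01. Ces1c was at -0.24 ± 0.08, with 2983 and 3135 against 3376 and 3474, and its other probe at -0.18 ± 0.06. Its neighbour Ces1d was at -0.18 ± 0.04 with a processed ratio of 0.02 in replicate 1, and Ces1e at 0.21 ± 0.04 with 864 and 788 against 742 and 705. Thus genes next to each other within the cluster lay on opposite sides of 0. Ces2c, in the second cluster, was at 0.29 ± 0.19, and its other probe at 0.19 ± 0.06. Ces2e, with intensities of 66807 and 49047 against 55751 and 61269, was at 0.59 and -0.46, and Ces2a and Ces2b showed the same split between the arrays. Genes of this family are near copies of each other, and cross-hybridisation between them was not tested.

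**Figure D5:**
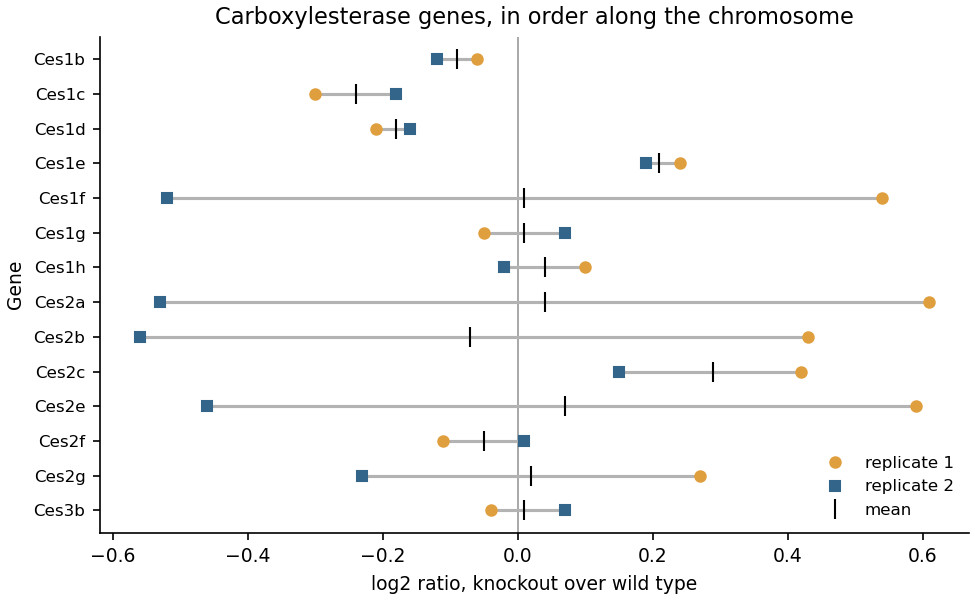
Log2 ratio in each array for the 14 tested carboxylesterase genes in their order along the chromosome, with circles for replicate 1, squares for replicate 2, ticks for the mean and lines for the span. Ces1c and Ces1d lie below 0 and Ces1e and Ces2c above 0 on both arrays, while Ces2a, Ces2b, Ces2e and Ces1f run from one side to the other.

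Signalling and immune genes showed few shared directions. Of 6 tested chemokine and CMTM genes, 2 were lower and 0 higher on both arrays, with a median of -0.08. Cx3cl1, the membrane-bound chemokine fractalkine, was at -0.12 ± 0.12, and Ccl17, a chemokine that draws T cells, had opposite directions with 0.31 and -0.42. Of 9 innate immune genes, 2 were lower and 2 higher. Besides Hp, these were Il34, a ligand of the macrophage growth factor receptor, at -0.05 ± 0.05, Mlkl, the executor of necroptosis, at 0.11 ± 0.06, and Plcg2, a phospholipase of B cell signalling, at 0.14 ± 0.06. Irf8, a transcription factor of myeloid and B cells, was bright at 13480 and 14120 against 15831 and 13401 and had opposite directions, with a mean of -0.04 ± 0.14.

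Adhesion and cytoskeletal genes lay near 0. Of 7 cadherins, 1 was higher and 0 lower on both arrays, with means from -0.05 to 0.07. Cdh1, the cadherin of epithelia, had intensities of 32263 and 30215 against 30780 and 32640, which overlap, and a ratio of 0.01 ± 0.16. Of 12 cytoskeleton and adhesion genes, 3 were lower and 0 higher, with Gas8 the furthest from 0 of those 3. Cotl1, which binds actin, was at 0.78 and -0.47, a mean of 0.16 ± 0.88. Itgb1, the beta subunit of many integrins, was at 0.02 ± 0.10.

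Metabolic genes had small ratios. Of 15 mitochondrial and redox genes, 5 were lower and 1 higher on both arrays, with a median of -0.10, where 18.1% of all genes were lower and 16.9% higher. The list as drawn also held Galns and Aprt, which belong to neither class and had opposite directions on the arrays. Besides Coq9 and Mlycd, the lower genes were Nqo1, a quinone reductase, at -0.22 ± 0.21, Ciapin1 at -0.14 ± 0.12, and Tomm20, a receptor of the outer mitochondrial membrane, at -0.12 ± 0.00. For Nqo1 and Ciapin1 the processed ratios changed sign between the arrays. Cox4i1, a subunit of the respiratory chain, was at 0.60 and -0.54. Of 13 genes listed as lipid and steroid enzymes, 4 were lower, Mlycd again among them, and 1 higher, with a median of -0.03. Mbtps1 stood both in this list and in that of the proteases, and had opposite directions on the arrays. Hsd17b2, which inactivates sex steroids, was at 0.26 and -0.64, and Lpcat2, which makes phosphatidylcholine from its lyso form, at -0.10 and 0.35.

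Transport and protease genes showed no common direction. Of 6 tested names that begin as solute carriers do, 1 was lower, Slc7a5, and 2 higher. One of the latter, Slc7a6os at 0.33 ± 0.36, is listed by its name only, as it is no carrier. Of 13 genes listed as proteases and peptidases, 1 was lower and 1 higher. Dpep1, a brush border dipeptidase, was at -0.14 ± 0.11 with 49694 and 40999 against 48832 and 51015, and Capn9, a calpain of the digestive tract, at 0.12 ± 0.03. Of 12 developmental transcription factors, 5 were higher and 0 lower on both arrays, with a median of 0.03, where 16.9% of all genes were higher. Of these 5, Irx6 and Zfhx3 were at 0.00 on 1 array to the digits given. Foxc2 was at 0.13 ± 0.07 but dim, at 30.6 and 41.6 against 41.4 and 33.5, and its processed ratios of -0.44 and 0.31 turned the mean to -0.06. Zfpm1, a partner of GATA factors, was at 0.88 and 0.03, and Nfatc3 is given above. No gene of these 10 lists was at least 1.5-fold apart in the same direction on both arrays.

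The genes beside the left-out Mt1 and Tat did not share their ratios either. The probes of Mt1 were at -2.92 ± 0.14 and -2.49 ± 0.27 and that of Tat at -1.07 ± 0.10. The genes around Mt1 included Nudt21, whose probes disagreed as given above. Ogfod1 was at -0.04 ± 0.27, Bbs2 at -0.10 ± 0.09, Nup93 at 0.00 ± 0.66, Herpud1 at -0.09 ± 0.20 and 9330175E14Rik at 0.04 ± 0.38. Mt2, next to Mt1, was at -0.39 and 0.13. Around Tat, Ap1g1 was at -0.06 ± 0.15, Marveld3 at -0.14 ± 0.82, Zfp612 at -0.16 ± 0.49 and Calb2 at -0.09 ± 0.04, besides Phlpp2 and Chst4 given above. AK090125 lies 29.2 Mb from the brighter Mt1 probe and 13.4 Mb from that of Tat. By normexp and loess, 0 other tested members anywhere in the interval were 1.5-fold apart in the same direction on both arrays.

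Markers of the gut epithelium were present, with all 8 of a list of 8 well above background and a median ratio of -0.05. Their summed processed intensity was 704562 and 691409 in the RNA labelled knockout and 623474 and 666546 in the RNA labelled wild type. By direction, 2 were higher and 2 lower on both arrays and 4 had opposite directions. Without Fabp2, a fatty acid binding protein at 0.70 ± 0.35, the sums turned to 470528 and 458751 against 495278 and 488118. Markers of some other cells differed in level between the genotypes, and those of others did not share a direction. All 6 B cell markers were higher on both arrays, with sums of 9310 and 8805 against 5813 and 6379. Of 9 skeletal muscle markers, 6 were higher, 2 lower and 1 opposite, with sums of 5247 and 5023 against 2966 and 2939. The lower ones were Ckm and the muscle actin gene Acta1, a member, each at a mean of -0.07. Of 5 adipocyte markers, 3 were lower and 0 higher, with sums of 22929 and 21391 against 29132 and 29761. Of 5 tested hepatocyte markers, which include Tat and the member Hp, 2 were higher and 2 lower, and Alb was too dim. The hepatocyte sums were 25294 and 26492 against 26100 and 26794. Cps1 made up most of these sums, with 22897 and 24145 against 22257 and 22613. Tat had 1273 and 1333 against 2683 and 2928. Of 7 tested macrophage and dendritic cell markers, 0 were higher, 1 lower and 6 opposite, with a median of -0.05. Of 7 tested pancreas markers, 2 were lower and 0 higher, and 5 had opposite directions. Their sums were 681 and 757 against 933 and 887, and without Pnliprp1 they were 415 and 495 against 544 and 482, which overlap. The member Ctrb1 was at -0.10 ± 0.35. The part of these markers in the ratios of AK090125, Agt or Plcg2 was not tested. In such bulk RNA, fewer cells of a type and less RNA per cell cannot be told apart.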

How the data were processed

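Intestinal RNA of both genotypes was hybridised on 2 dye-swapped Agilent arrays of design 014868, one group with the RNA labelled knockout set against that labelled wild type. Per the file headers, the deposited spot intensity values came from Feature Extraction 11.5.1.1, with mm9 coordinates; the submitters' processing notes name version 9.5. The deposited log10 ratio is processed Cy5 over processed Cy3, and its sign was turned for replicate 1. The authors' value table gives these log10 ratios again, rounded. Each array had 43379 spots of gene probes; 133 and 222 carried feature or background outlier marks and were removed. Background was corrected with normexp (offset 50) and ratios were normalized by loess in R 4.3.3 with limma 3.58.1. The limma test was also run on simulated data with equal noise in every probe and no dye effect. These arrays differ from that setting, so the simulation does not show how the test performs on them. A probe was tested when it cleared background on each array for one and the same genotype, and spots of a probe were averaged. limma's lmFit and eBayes ran over all tested probes, with Benjamini-Hochberg adjustment, to give the background only. Symbols of 506 members were looked up by accession in RefSeq (GRCm38.p6).

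Named were AK090125, its 5 nearest measured genes per side and the 3 nearest to Mt1, to Tat and to the start of the interval, the 12 lower and 12 higher genes with the largest smaller ratio, and up to 4 genes per list; further list members were chosen after their values were seen. The members and lists were chosen with earlier results of these data known. Alternatives changed the background correction, normalization, marked spots, dim-probe filter, fold threshold, interval start and arrays used.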

Additional observations from a re-analysis of the deposited data

How the results depend on the processing

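AK090125 stayed higher in the RNA labelled knockout under all 11 alternatives, with log2 ratios from 3.13 to 4.09. It was at 4.09 with the scanner's processed ratios and with the deposited value table, 3.96 with a normexp offset of 0, 3.13 with marked spots kept, and 3.26 to 3.78 on 1 array alone. The dim-probe filters cannot change the ratio of a single probe, and the value table repeats the processed ratios. Those alternatives therefore add no separate check of AK090125. The count of members at least 1.5-fold higher was 2 with the processed ratios and with the value table, where the dim Adgrg5 (intensities 24.3 and 34.2 against 16.2 and 21.1) joined AK090125, and 0 without the AK090125 probe, an alternative added after seeing the data. The count lower was 1 with offset 0 (Lrrc29) and 1 at 1.3-fold (Agt). The share of members higher on both arrays was 17.7% with processed ratios, 17.5% with the value table, 8.35% with median centring and 9.32% with marked spots kept, where the share lower was 29.3%. Shares over all tested probes under these settings are not given here, so nothing about the interval is read from these shifts. The median ratio was -0.027 with processed ratios and the value table, -0.026 with offset 0, -0.032 with median centring and -0.035 with marked spots kept. Its difference from the rest of chromosome 8 was 0.002 as reported, -0.003 with median centring and -0.010 with marked spots kept. The sign of this difference was thus not settled. On replicate 1 alone, 1 member was lower and 26 higher by 1.5-fold, and on replicate 2 alone 18 were lower and 1 higher. By this threshold the arrays thus leaned opposite ways, and shares over all tested probes on each array are not given here. By direction, 51.1% were lower and 48.9% higher on replicate 1, and 54.6% and 45.4% on replicate 2. The difference in median from the rest of chromosome 8 was -0.009 on replicate 1 and 0.005 on replicate 2. limma called 80 probes of the array with processed ratios and 80 with the value table, 30 with offset 0, and 9 after a surface over row and column was removed. The cause of these changes was not tested. With both arrays kept, 380 of 483 single-gene values moved by less than the spread between arrays and 103 by more, and of 70 list medians 54 and 16. Dim signals limit the ratios of 20 tested members that failed to clear background in one genotype on at least 1 array.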
